A study of Arabidopsis thaliana with 6 samples.

Results

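NAC genes encode plant transcription factors with a conserved DNA-binding NAC domain at the protein's amino end, and they act in organ boundaries, cell wall formation, senescence, seed development and stress responses. Several are held at membranes until a signal releases them, and a few are cleaved at the RNA level by the microRNA miR164. SEPALLATA3 (SEP3), a MADS-domain protein of floral organ identity, works in dimers and tetramers with other MADS-domain proteins. It belongs to the same regulatory network as AP3 and PI, after which the NAC gene NAP was named. The question addressed here is which NAC genes lay near SEP3 binding sites when SEP3 could or could not form tetramers.

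The NAC genes were the protein-coding genes of a RefSeq gene table whose symbol or synonym is NAC or ANAC plus a number, leaving out the boundary genes CUC1, CUC2 and CUC3. There were 97 of them among 27444 nuclear protein-coding genes. SEP3 binding had been mapped by chromatin immunoprecipitation and sequencing (ChIP-seq) in Arabidopsis thaliana inflorescences of a tetramerization-deficient line, SEP3tet (genotype pSEP3:SEP3tet;sep1,2,3), and of a wild-type rescue line, SEP3wt (pSEP3:SEP3wt;sep1,2,3). Both lines therefore shared the sep1,2,3 background and carried their SEP3 copy behind pSEP3. The 6 samples were 2 precipitations per line with native antibody against SEP3 and, for each line, 1 mock made with pre-immune serum. The sources used here do not give whether a line stands for 1 or several insertion events.

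The data were 1 list of peaks per line, with 3601 peaks in SEP3tet and 2225 in SEP3wt. Each peak carries a summit position and the authors' fold enrichment and −log10 q, where fold enrichment is the signal at the summit over the peak caller's background and q is the caller's adjusted p-value. A NAC gene counted as a target if a peak summit of that line fell between 3 kb before its lower edge and 3 kb past its upper edge. The gene table gives no strand, so upstream and downstream were not told apart. Sequencing depth is unknown, no value per replicate was held, so differences between the lines have no replicate spread to be read against. All counts below are therefore descriptions without a test. The lists hold no RNA values, so the labelled tissue was not checked against marker genes.

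More NAC genes lay near a summit of the longer SEP3tet list (3601 peaks) than of the SEP3wt list (2225). Every NAC target of wild-type SEP3 was also a target of SEP3tet, beside 90.5% of SEP3wt targets among all coding genes. In SEP3tet 24 of 97 NAC genes were targets (24.7%, exact 95% interval 16.5 to 34.5), beside 21.2% of all coding genes. In SEP3wt 16 of 97 were targets (16.5%, 9.73 to 25.4), beside 13.7% of all coding genes. Both shares lay near those of all genes, so the family as a whole did not stand out. The intervals cover counting error over genes only.

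The 16 NAC genes with a summit in both lines were NAC001, ATAF1, NAC014, NAC015, NAC019, NAC023, NAC045, NAC046, ANAC055, ANAC056, NAC062, NAC076, NAC080, ATAF2, TIP and NAC102. They made up 16.5% of the family, beside 12.4% of all coding genes. A further 8 had a SEP3tet summit without a SEP3wt summit in the window, namely NAC032, NAC048, NAC049, RD26, NAC075, NAC085, NAC088 and NAC100 (8.25%, beside 8.79% of all coding genes). None of 97 had a SEP3wt summit alone, beside 1.30% of all coding genes; the exact 95% interval reaches 3.73%, and the limit of 3 counts of the total that a count of 0 allows is 3.09%. With equal numbers of peaks taken from both lists by −log10 q, 5 members had a SEP3tet summit alone and 3 a SEP3wt summit alone. By line, 18.6% of members were then targets in SEP3tet and 16.5% in SEP3wt, beside 14.6% and 13.7% of all coding genes. For a summit in 1 line alone, the share over all coding genes was not counted in that setting. The remaining 73 members had no summit in the window in either list. By chromosome, targets of either line were 7 of 31 members on chromosome 1, 0 of 8 on chromosome 2, 7 of 21 on chromosome 3, 3 of 10 on chromosome 4 and 7 of 27 on chromosome 5.

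**Figure D1:**
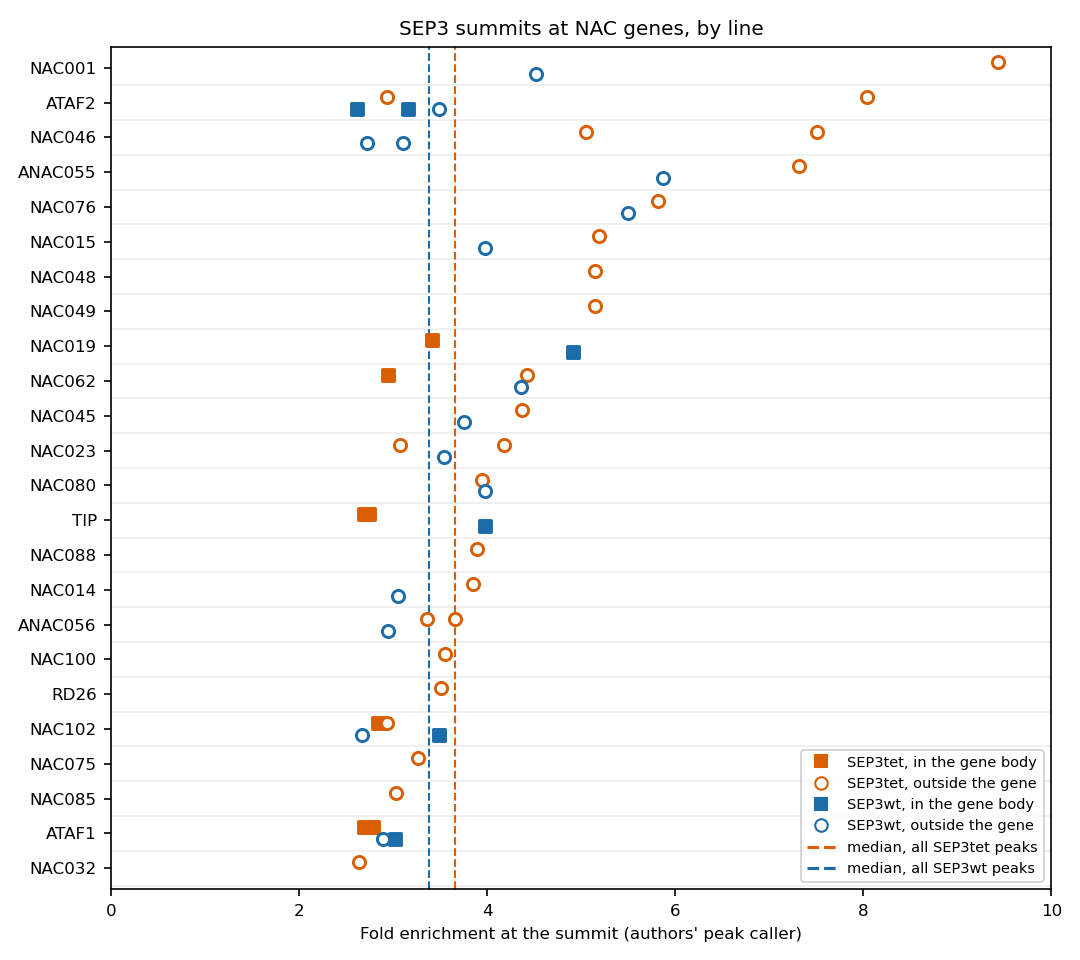
Fold enrichment (horizontal axis, no unit) of every summit at the 24 NAC targets, 1 row per gene, with SEP3tet in orange above SEP3wt in blue; filled squares are summits in the gene body, open circles summits outside it, and dashed lines the median of all peaks of each list. NAC001, ATAF2, NAC046 and ANAC055 had SEP3tet folds above 7, while all filled squares of SEP3tet lay below 3.5.

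Among the role lists, the stress-response NAC genes had the highest share of targets in both lines. This list holds ATAF1, ATAF2, NAC032 and NAC102, which form the ATAF branch of the family, and NAC019, ANAC055 and RD26, which are induced by dehydration, abscisic acid and jasmonate. In SEP3tet 7 of 7 were targets (beside 21.2% of all coding genes) and in SEP3wt 5 of 7 (beside 13.7%), and RD26 and NAC032 were the members without a SEP3wt summit. With equal numbers of peaks the counts were 4 in SEP3tet and 5 in SEP3wt, beside 14.6% and 13.7% of all coding genes. The full count in SEP3tet thus rested on peaks among the weakest of that list. The list was put together with earlier results of these data known and was given no test.

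ANAC055 (AT3G15500, symbol NAC3) had the strongest NAC peak of the SEP3wt list. Its fold was 7.31 in SEP3tet (chromosome 3, 5236464 to 5236983; −log10 q 26.7) and 5.87 in SEP3wt (5236435 to 5237000; −log10 q 20.5). The summits lay outside every gene, 606 bp from ANAC055 in SEP3tet and 594 bp in SEP3wt, and ANAC055 was the nearest gene in both. These peaks ranked 172 of 3601 in SEP3tet and 192 of 2225 in SEP3wt by fold.

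ATAF2 (AT5G08790), a wound- and pathogen-responsive factor, differed between the lists in where its summits lay. In SEP3tet its stronger peak (chromosome 5, 2856346 to 2856812) had a fold of 8.04 and a −log10 q of 31.1 and lay 2262 bp from the gene, and a weaker one lay 2894 bp away with a fold of 2.93. In SEP3wt the peak at the stronger position (2856482 to 2856796) had a fold of 3.48, and another 2 summits lay inside the ATAF2 gene with folds of 3.16 and 2.62. The distant summits were nearest to or inside the neighbour AT5G08770, so their link to ATAF2 rests on the 3-kb window. Inside ATAF2 the SEP3tet list had no summit.

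NAC019 (AT1G52890) was marked by a peak over the gene itself in both lines. The SEP3tet peak (chromosome 1, 19697141 to 19697597) was 457 bp wide with a fold of 3.41 and ranked 2141 of 3601. The SEP3wt peak (19696621 to 19698471) was 1851 bp wide with a fold of 4.92 and ranked 366 of 2225. At ATAF1 (AT1G01720) the SEP3tet list had 2 gene-body summits with folds of 2.78 and 2.69. In SEP3wt ATAF1 had a gene-body peak of 1334 bp with a fold of 3.02 and a summit in the adjoining gene AT1G01725 with a fold of 2.89. NAC102 (AT5G63790) had a gene-body fold of 2.83 in SEP3tet and 3.48 in SEP3wt. Its other summits fell in the bodies of the neighbours MUM2 (SEP3tet, fold 2.93) and SHA1 (SEP3wt, fold 2.67).

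RD26 (AT4G27410) had a SEP3tet summit 1153 bp away, nearest to AT4G27415, with a fold of 3.51 (chromosome 4, 13710260 to 13710402). NAC032 (AT1G77450) had a SEP3tet summit 10 bp from the gene with a fold of 2.64 and a −log10 q of 2.23, the lowest of any NAC summit in that list. RD26 also had a summit in both lines just beyond the window, at 3052 bp in SEP3tet (fold 3.56) and 3039 bp in SEP3wt (fold 3.70), both nearest to ABCG9. With a 5-kb window RD26 was therefore a target in both lines. Its SEP3tet summit at 1153 bp lay in a peak that overlapped no SEP3wt peak.

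**Figure D2:**
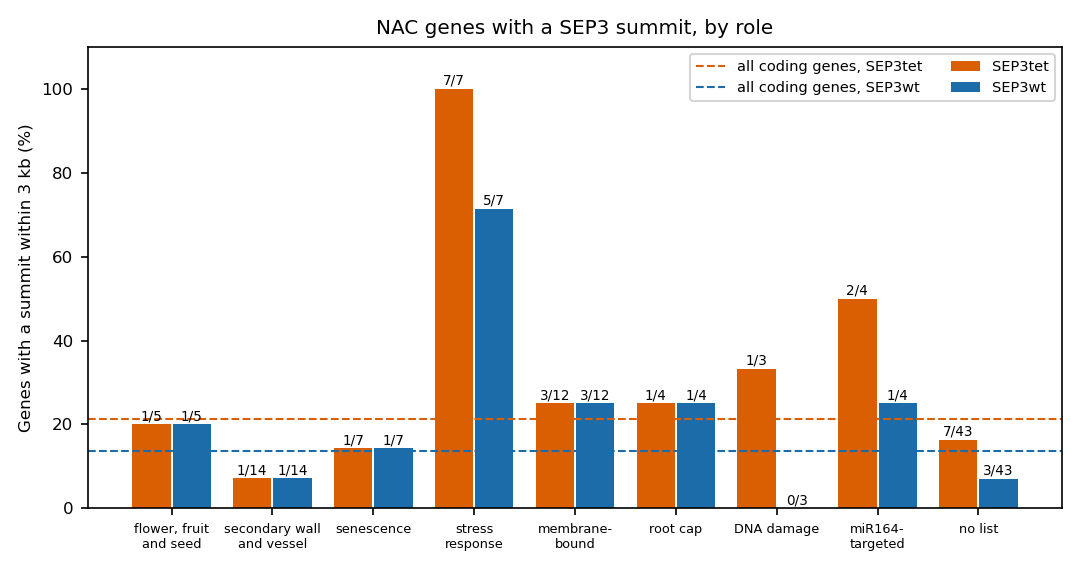
Share of NAC genes that were targets (vertical axis, percent) by role list, SEP3tet in orange and SEP3wt in blue, with the number of targets of the number of genes above each bar and the share of all coding genes as dashed lines. The stress-response list stood at 7 of 7 and 5 of 7, and the secondary wall and vessel list at 1 of 14 in each line.

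Among NAC genes of flower, fruit and seed, ANAC056 was the target in both lines and 4 others had no summit in the window. That was 1 of 5 in each line (20.0%, beside 21.2% of all coding genes in SEP3tet and 13.7% in SEP3wt). ANAC056 (AT3G15510, symbol NAC2, also NARS1) acts with NAM (NARS2) in the seed integuments. It had SEP3tet folds of 3.36 (chromosome 3, 5247155 to 5247351) and 3.65 (5248074 to 5248263) and a SEP3wt fold of 2.94 (5247211 to 5247346). The summits present in both lines lay 1765 bp away in SEP3tet and 1756 bp away in SEP3wt, with ANAC056 the nearest gene. The stronger SEP3tet summit lay 2651 bp away and was nearest to AT3G15518. NAP, whose full name is NAC-like, activated by AP3/PI, had no summit in the window in either line, nor did NAM, NAC025 or the flowering-time gene LOV1.

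Of the secondary wall and vessel genes 1 of 14 was a target in each line (7.14%, beside 21.2% of all coding genes in SEP3tet and 13.7% in SEP3wt). That gene was NAC076 (AT4G36160), which encodes VND2, a factor of xylem vessel formation. Its peaks were strong, with a fold of 5.82 in SEP3tet (chromosome 4, 17115214 to 17115666; −log10 q 17.5) and 5.49 in SEP3wt (17115283 to 17115676; −log10 q 17.4). Both summits lay inside the neighbouring gene AT4G36170, 1274 bp from NAC076 in SEP3tet and 1317 bp in SEP3wt. The other VND genes, NST1, NAC066 (NST2), NAC012 (NST3), NAC010 (SND3), NAC073 (SND2), XND1 and NAC083 (VNI2) had none.

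Of 7 senescence genes 1 was a target in each line (14.3%, beside 21.2% of all coding genes in SEP3tet and 13.7% in SEP3wt). This was NAC046 (AT3G04060), which promotes chlorophyll breakdown. It carried 2 summits on the same side of the gene in each list. The nearer had a fold of 5.05 in SEP3tet (chromosome 3, 1055542 to 1055933) and 2.72 in SEP3wt (1055657 to 1055809). The farther had a fold of 7.51 in SEP3tet (1057929 to 1058305; −log10 q 28.5) and 3.10 in SEP3wt (1058048 to 1058172; −log10 q 4.43). Distances were 561 and 2919 bp in SEP3tet and 552 and 2901 bp in SEP3wt, and NAC046 was the nearest gene each time. The farther peak ranked 151 of 3601 in SEP3tet and 1376 of 2225 in SEP3wt. NAP, ANAC092 (ORE1), ANAC059 (ORS1), NAC042 (JUB1), NAC016 and ANAC087 had no summit in the window.

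Among 12 membrane-bound NAC genes 3 were targets, and the same 3 in both lines (25.0%, beside 21.2% of all coding genes in SEP3tet and 13.7% in SEP3wt). NAC062 (AT3G49530), released from the membrane under cold and pathogen stress, had wide peaks across its edge: 1930 bp with a fold of 4.42 in SEP3tet (chromosome 3, 18361893 to 18363822) and 2707 bp with a fold of 4.35 in SEP3wt (18361837 to 18364543). The summits lay 62 bp outside the gene in SEP3tet and 36 bp outside in SEP3wt, and SEP3tet had a further summit in the gene body with a fold of 2.95. TIP (AT5G24590), named for its binding to a viral capsid protein, had a gene-body peak of 2416 bp with a fold of 2.74 in SEP3tet and of 2547 bp with a fold of 3.97 in SEP3wt. NAC014 (AT1G33060) had a narrow peak 190 bp away in SEP3tet (fold 3.84) and 223 bp away in SEP3wt (fold 3.05). ANAC013, NAC017, NTL8, NAC053, NAC060, NTM1, NAC069, ANAC078 and NAC089 had no summit.

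Root cap genes had 1 target of 4 in each line (25.0%, beside 21.2% of all coding genes in SEP3tet and 13.7% in SEP3wt). NAC015 (AT1G33280), the BRN1 gene of root cap maturation, had a fold of 5.19 in SEP3tet (chromosome 1, 12070356 to 12070695) and 3.97 in SEP3wt (12070331 to 12070635). The summits lay 2133 bp away in SEP3tet and 2088 bp away in SEP3wt, nearest to AT1G33270. FEZ, SMB and NAC070 (BRN2) had none in the window.

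Of 3 genes of the DNA damage response 1 was a target in SEP3tet (33.3%, beside 21.2% of all coding genes) and none in SEP3wt (beside 13.7%). NAC085 (AT5G14490), which halts the cell cycle together with NAC044, had a SEP3tet summit 360 bp away with a fold of 3.02. SOG1 and NAC044 had none. Among the miR164-targeted genes, NAC080 (AT5G07680) had a fold of 3.94 in SEP3tet (chromosome 5, 2433870 to 2434083) and 3.97 in SEP3wt (2433794 to 2434122). Its summits lay 1794 bp away in SEP3tet and 1787 bp away in SEP3wt, almost midway to AT5G07670. NAC100 (AT5G61430) had a SEP3tet summit 1601 bp away with a fold of 3.55 (24699349 to 24699557) and was its nearest gene. ANAC022 (NAC1) and ANAC092 had none. Of the genes that encode miR164, MIR164b had a SEP3tet summit 2407 bp away with a fold of 3.15, and MIR164a and MIR164c had none in either line. The boundary genes CUC1, CUC2 and CUC3, left out of the members, also had none in either line.

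The 43 NAC genes in no role list held 7 targets in SEP3tet (16.3%, beside 21.2% of all coding genes) and 3 in SEP3wt (6.98%, beside 13.7%). NAC001 (AT1G01010) had the highest fold of all NAC targets, 9.43 in SEP3tet (chromosome 1, 8100 to 8636; −log10 q 41.6), where it ranked 39 of 3601. In SEP3wt its fold was 4.52 (8283 to 8501; −log10 q 11.6), a rank of 481 of 2225. The summit fell inside the neighbour ARV1, a gene of lipid homeostasis, 2487 bp from NAC001 in SEP3tet and 2499 bp in SEP3wt. NAC001 therefore counts as a target by the window alone.

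NAC045 (AT3G03200), which acts with NAC086 in the loss of nuclei from sieve elements, had a fold of 4.37 in SEP3tet (chromosome 3, 739870 to 740152) and 3.76 in SEP3wt (739879 to 740077), nearest to AT3G03210. NAC086 had no summit. NAC023 (AT1G60280) had folds of 4.18 and 3.07 in SEP3tet, at 1014 and 2442 bp, and of 3.54 in SEP3wt at 1037 bp. The stronger SEP3tet peak spanned 22225656 to 22225962 of chromosome 1 and the SEP3wt peak 22225758 to 22225928.

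NAC048 (AT3G04420) and NAC049 (AT3G04430) are neighbours with 997 bp between them and shared 1 summit of the SEP3tet list, so they are not separate observations. That peak (chromosome 3, 1175046 to 1175457) had a fold of 5.14 and a −log10 q of 13.7, the highest fold among members without a SEP3wt summit. It lay 672 bp from NAC048 and 326 bp from NAC049. NAC088 (AT5G18300) had a SEP3tet fold of 3.89 (chromosome 5, 6056655 to 6056936) with the summit inside the aquaporin gene SIP1;2. At NAC075 (AT4G29230) a SEP3tet summit with a fold of 3.27 (chromosome 4, 14417849 to 14418068) lay 2496 bp away, nearest to AT4G29240. Over the 8 members without a SEP3wt summit the strongest SEP3tet fold had a median of 3.53, beside 3.27 for all coding genes of that kind.

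**Figure D3:**
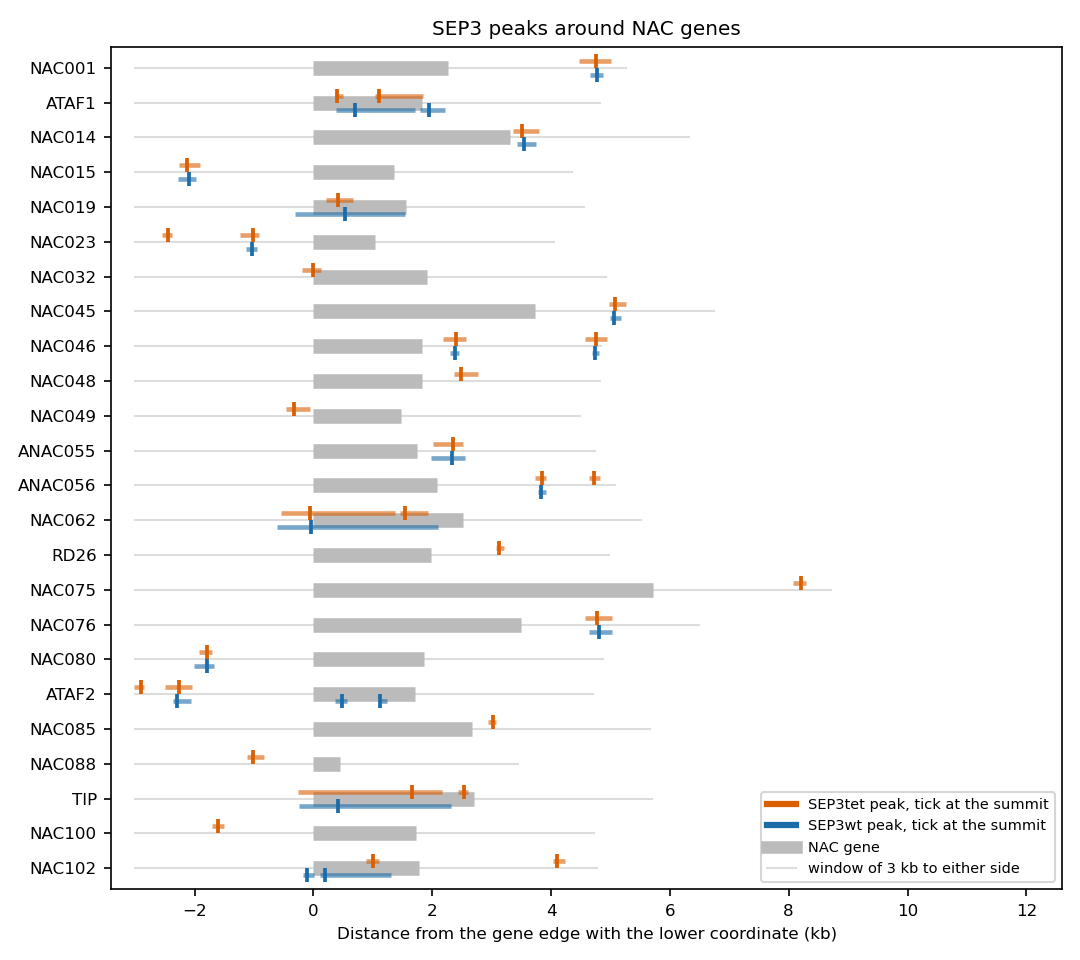
Peaks (coloured bars, tick at the summit) around the 24 NAC targets, plotted as distance in kb from the gene edge with the lower coordinate, with SEP3tet in orange above SEP3wt in blue and each gene as a grey bar. Peaks at NAC046, ANAC055 and NAC076 line up between the lines, while those over ATAF1, NAC019 and TIP differ in extent and summit.

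Where peaks of the lines overlapped at NAC genes, summits outside the gene body lay close together and those in it lay farther apart. Of 31 SEP3tet summits at NAC genes, 19 lay in peaks that overlapped a SEP3wt peak (61.3%, exact 95% interval 42.2 to 78.1), beside 53.4% of all SEP3tet summits within 3 kb of a coding gene. Of 21 SEP3wt summits, 18 lay in peaks that overlapped a SEP3tet peak (85.7%, 63.7 to 97.0), beside 84.7%. Among the overlapping SEP3tet summits, the 13 outside the NAC gene's body lay 7 to 45 bp from the closest SEP3wt summit of an overlapping peak (median 18 bp). The 6 inside it lay 121 to 1579 bp away, and none within 100 bp. Each of these 6 overlapped a wide SEP3wt peak, of 1197 to 2707 bp, and the part of width in the larger gaps was not tested. They came from 5 genes and were not all separate pairs. Both ATAF1 summits were set against the same SEP3wt summit, at 304 and 408 bp. The NAC062 summit, at 1579 bp, was set against a SEP3wt summit outside that gene, which lay 26 bp from another SEP3tet summit. The 13 summits outside the NAC gene's body include those at NAC001 and NAC076, which fell inside a neighbouring gene. Over all overlapping SEP3tet peaks, a gene body was instead that of any coding gene. By that split 92.3% of summits outside gene bodies and 68.7% of those in gene bodies lay within 100 bp of a SEP3wt summit. For SEP3tet peaks over 1 kb wide it was 52.2%, and for narrower ones 84.7%.

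Gene-body summits were found at 5 NAC genes in SEP3tet, namely ATAF1, NAC019, NAC062, NAC102 and TIP, and at 5 in SEP3wt, namely ATAF1, NAC019, NAC102, TIP and ATAF2. This was 5.15% of the family in each line, beside 4.53% of all coding genes in SEP3tet and 3.11% in SEP3wt. In both lines it was 4 genes (4.12%, beside 2.46%), and in either line 6 (6.19%, beside 5.17%). All 6 of these genes were in the stress-response list, of 7 members, or the membrane-bound list, of 12. Both role lists were put together with earlier results of these data known, so no pattern is read from this. The SEP3tet gene-body summits at NAC genes had folds of 2.69 to 3.41 (median 2.78), beside a median of 3.41 for all gene-body summits of the peak list. The SEP3wt ones had folds of 2.62 to 4.92 (median 3.32), beside 3.21.

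Peaks over 1 kb wide held 1 of 7 gene-body summits at NAC genes in SEP3tet and 4 of 6 in SEP3wt. The gene was TIP in SEP3tet (1.03% of the family, beside 0.434% of coding genes), and in SEP3wt ATAF1, NAC019, NAC102 and TIP (4.12%, beside 0.594%). Over all gene-body summits, 8.23% lay in such wide peaks in SEP3tet and 15.9% in SEP3wt. Summits outside every coding gene marked 17 NAC genes in SEP3tet (17.5%, beside 13.4%) and 9 in SEP3wt (9.28%, beside 7.82%). NAC summits outside the gene body lay in narrow peaks, with a median width of 295 bp in SEP3tet and 305 bp in SEP3wt. The exception in both lines was the wide peak at the edge of NAC062. The mock samples' signal was not used here, and the part of gene-wide background in these wide peaks was not tested.

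**Figure D4:**
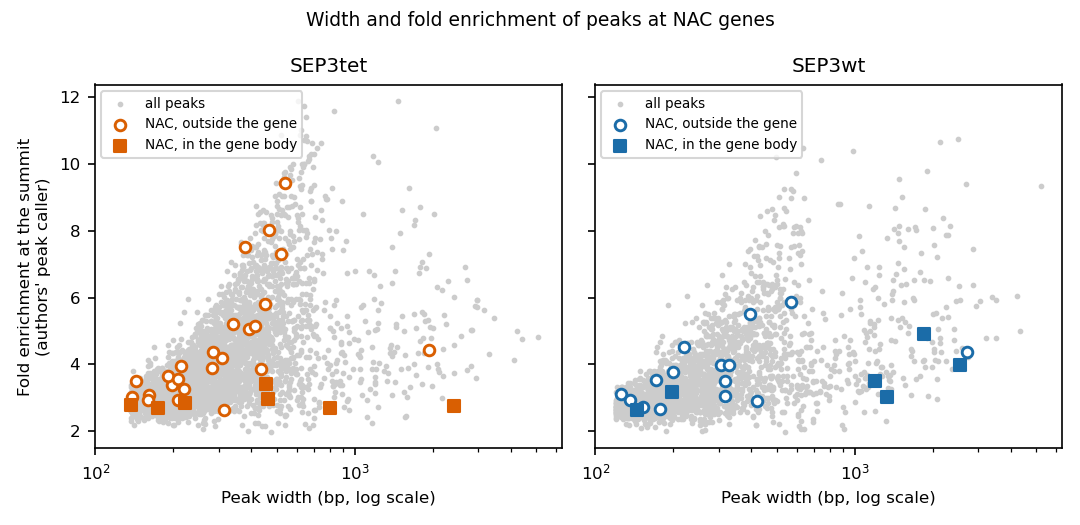
Peak width (horizontal log axis, bp) against fold enrichment (vertical axis) for SEP3tet on the left and SEP3wt on the right, with all peaks in grey, summits outside the NAC gene as open circles and summits in the NAC gene body as filled squares. In SEP3wt 4 of 6 filled squares lay beyond 1 kb, and in SEP3tet 1 of 7.

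NAC peaks were of ordinary strength for their lists, apart from a few strong ones in SEP3tet. The strongest fold per NAC target had a median of 3.92 in SEP3tet (2.64 to 9.43), beside 3.89 for all target genes. In SEP3wt the median was 3.86 (2.94 to 5.87), beside 3.59. Of SEP3tet summits at NAC genes 15 of 31 had a fold rank above the middle of their list, and of SEP3wt summits 12 of 21. In SEP3tet 8 NAC genes had several summits (8.25%, beside 5.04% of coding genes) and in SEP3wt 4 had (4.12%, beside 2.77%).

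A neighbour was the nearest gene for many of these summits. The NAC gene held the summit or was the nearest coding gene for 17 of 31 summits in SEP3tet and 13 of 21 in SEP3wt. The SEP3tet count took the summit shared by NAC048 and NAC049 as one of NAC048. NAC049 was its nearest gene, so the count is short by that summit. By the nearest gene alone 14 members were targets in SEP3tet (14.4%, beside 10.6% of coding genes) and 11 in SEP3wt (11.3%, beside 6.74%). Of the 24 targets, 9 were the nearest gene of no summit in either list. These were NAC001, NAC015, NAC045, NAC048, RD26, NAC075, NAC076, NAC080 and NAC088. The farthest summits inside the window were those of NAC046 named above. Just outside it lay those of NAC047, at 3185 bp in SEP3tet and 3203 bp in SEP3wt, which belong to the same NAC046 peaks.

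Other families of transcription factor genes, taken by symbol alone, gave target shares of the same order. The NAC genes were taken by symbol or synonym. By symbol alone 20 of 81 NAC genes were targets in SEP3tet (24.7%) and 13 in SEP3wt (16.0%). WRKY genes had 20 of 67 targets in SEP3tet (29.9%) and 15 in SEP3wt (22.4%). MYB genes had 33 of 116 in SEP3tet (28.4%) and 19 in SEP3wt (16.4%). Of all coding genes 21.2% were targets in SEP3tet and 13.7% in SEP3wt. Gene-body summits were found at 5.15% of NAC genes in each line. For WRKY genes the share was 16.4% in SEP3tet and 10.4% in SEP3wt, and for MYB genes 6.90% in SEP3tet and 4.31% in SEP3wt. For all coding genes it was 4.53% in SEP3tet and 3.11% in SEP3wt. No difference between families was tested.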

How the data were processed

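The authors used TAIR10 as genome build and named Bowtie2 2.2.5, Trimmomatic 0.36, deepTools and MACS2 2.2.7.1, per the submitters' processing notes. How the authors combined the 2 replicates of a line, and whether the mock served as control, the sources used here do not give. The deposited fold enrichment is taken to be the authors' ratio of signal to background at the summit, from the narrowPeak layout of MACS2. The deposited −log10 q is that of the authors' caller. The deposited score and the authors' −log10 p were not used. The summit offset is the authors' deposited value in bp, and the summit was the peak start plus that offset, counted from 1.

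Genes and names came from a RefSeq table of assembly TAIR10.1. Positions printed are peak coordinates on TAIR10. As a check of both builds, 39.8% of SEP3tet and 45.3% of SEP3wt summits lay in gene bodies, against 59.7 to 64.0% and 58.5 to 64.0% after shifts of 2 to 10 kb. Assignment was tested on simulated summits. Shares carry exact (Clopper-Pearson) 95% intervals (scipy 1.17.1). Peaks were shared where they overlapped by at least 1 bp. Depth is unknown, and counting intervals cover genes or peaks only.

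Named are all NAC genes with a summit. Coordinates are given for the 12 with the highest fold, the 6 SEP3tet-only ones with the highest fold and targets of the flower list, and also for NAC080. Further genes, such as NAC047, were named after their values were seen. Members and role lists were chosen with earlier results of these data known. Planned counts of CArG boxes were not made, since no sequence was used here. Alternatives were other windows, the nearest gene, stricter q, equal peak numbers, location, other member rules and other overlaps.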

Additional observations from a re-analysis of the deposited data

How the results depend on the processing

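Counts of NAC targets are given in the order SEP3tet, SEP3wt, both lines, SEP3tet alone and SEP3wt alone, and were 24, 16, 16, 8 and 0 in the report. Percentages in brackets are target shares of members in SEP3tet and then SEP3wt, beside those of all coding genes. Under the alternatives, no share over all coding genes was counted for both lines or for a single line alone. A 1-kb window gave 12, 9, 8, 4 and 1 (12.4% and 9.28%, beside 12.3% and 7.79%). Counting the nearest gene gave 14, 11, 10, 4 and 1 (14.4% and 11.3%, beside 10.6% and 6.74%). Gene-body summits gave 5, 5, 4, 1 and 1 (5.15% and 5.15%, beside 4.53% and 3.11%). Summits outside every coding gene gave 17, 9, 9, 8 and 0 (17.5% and 9.28%, beside 13.4% and 7.82%). A −log10 q of at least 5 gave 18, 13, 10, 8 and 3 (18.6% and 13.4%, beside 14.7% and 8.46%). A −log10 q of at least 10 gave 9, 5, 4, 5 and 1 (9.28% and 5.15%, beside 7.76% and 4.60%). Equal numbers of peaks gave 18, 16, 13, 5 and 3 (18.6% and 16.5%, beside 14.6% and 13.7%). The members with a SEP3wt summit alone were ATAF2 with the 1-kb window, the nearest gene and gene bodies, NAC019 at a −log10 q of 10, and ATAF1, TIP and NAC102 at a −log10 q of 5 and with equal numbers. Each count stayed within 1.5 times with a 5-kb window (32, 21, 21, 11 and 0), other member rules, and without peaks over 1 kb (24, 13, 13, 11 and 0), an alternative chosen after seeing the data. With the 5-kb window the shares were 33.0% and 21.6%, beside 29.5% and 19.7%. Without peaks over 1 kb they were 24.7% and 13.4%, beside 20.6% and 12.8%. The share of NAC summits in overlapping peaks was 61.3% in SEP3tet and 85.7% in SEP3wt. It was 41.9% and 61.9% with summits within 100 bp, and 38.7% and 57.1% with a reciprocal overlap of 50% of each peak. For the stress-response genes, SEP3tet and SEP3wt counts of 7 and 5 became 4 and 5 at a −log10 q of 5, 2 and 2 at 10, and 4 and 1 outside every coding gene, alternatives added after seeing the data. By construction, a stricter q, a smaller window, the nearest gene, a location rule or equal numbers of peaks cannot raise a line's count. The 100-bp and reciprocal rules likewise cannot raise the share in overlapping peaks. Counts for 1 line alone can move either way, and the cause of those moves was not tested.

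No paired analysis was possible because each line has 1 peak list with no values per replicate, so no replicate was left out either. Alternatives on CArG boxes were not run.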

Other observations

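Several NAC genes without a summit in the window had one between 3 and 5 kb away, and were looked up after their values were seen. NAC042 (JUB1), which delays senescence, lay 4016 bp from a SEP3tet summit with a fold of 7.79 and 4026 bp from a SEP3wt summit with a fold of 6.15, both nearest to PIF4, a growth regulator of the light response. NAC105 (VND3) lay 4703 bp from a SEP3tet summit with a fold of 7.26 and 4684 bp from a SEP3wt summit with a fold of 5.44, nearest to AT5G66270. ANAC092 (ORE1) lay 3213 bp from a SEP3tet summit with a fold of 4.71, nearest to RABG1. NAC070 (BRN2) lay 3239 bp from a SEP3tet summit with a fold of 3.36. NAC095 lay 4405 bp from a SEP3tet summit with a fold of 5.14 and 4415 bp from a SEP3wt summit with a fold of 3.32.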
